A study of Mus musculus with 2 samples.

Results

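The Sox9 gene of the mouse lies in a long stretch of chromosome 11 with few protein-coding genes, between Kcnj2 and Slc39a11. All peaks of chromatin immunoprecipitation with sequencing (ChIP-seq) whose centres fell in this stretch were taken, from 110950000 to 113100000 on build mm9, a window of 2.15 Mb. The members were 223 of 102972 peaks. Sox6 contributed 169 from its list of 79107, and Sox9 54 from its list of 23865. The start of Sox9, on the plus strand, was taken at about 112643500 and its end at about 112649100, so distances from the start are approximate. The window reaches 1693.5 kb upstream and 456.5 kb downstream of that start.

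The series holds 1 Sox6 ChIP sample and 1 input DNA sample of untreated primary rib chondrocytes, the cells of cartilage. They came from wild-type ICR mice at postnatal day 1, with the mature hypertrophic part of the rib left out by dissection. The Sox9 peaks are a list that the authors derived again from 2 earlier Sox9 ChIP-seq samples of mouse primary rib chondrocytes, and neither strain nor age is stated for those animals in the sources used here. Each list gives peak positions only, without read counts, scores or replicates, so depth is unknown, no difference could be tested and the input was not analysed here. Because the lists name no genes, the cell type could not be checked against its markers. Differences between the lists in antibody, animals, depth and library cannot be told apart from differences between the factors.

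SOX9 is an HMG-box transcription factor that cartilage formation requires, and it acts in chondrocytes together with SOX5 and SOX6. SOX5 and SOX6 are SOXD proteins, which bind DNA through the same kind of HMG box and have no known activation domain of their own. Enhancers far from the gene, for cartilage and for other tissues such as the embryonic testis and face, lie in the desert around Sox9. Chromosome breaks in the human counterpart of this desert cause campomelic dysplasia and Pierre Robin sequence. In the RefSeq gene table of another build (GRCm38.p6), used for names and order only, 17 genes stand between Kcnj2 and Slc39a11. Besides Sox9, only Gm11677 among them is protein-coding, and 14 are long non-coding RNAs, including BC006965, the nearest on the Kcnj2 side. Of the others, 7 genes lie on the Kcnj2 side of Sox9 and 9 on the Slc39a11 side, where 2610035D17Rik is 1 of the long non-coding RNAs.

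Peaks of both factors were dense in the desert. The Sox6 list held 78.6 peaks per Mb there (95% exact Poisson interval 67.2 to 91.4), against 32.3 per Mb over the rest of the autosomes, a ratio of 2.43. For Sox9 the density was 25.1 per Mb (18.9 to 32.8) against 9.85, a ratio of 2.55. Chromosome 11 is itself rich in peaks, and against the rest of that chromosome the ratios were 1.77 for Sox6 and 1.80 for Sox9. All intervals here and below reflect the error of counting alone, on the footing that each peak is independent, although neighbouring peaks may not be. When the autosomes were tiled into 1102 other windows of the same length, the median window held 64 Sox6 peaks and 18.5 Sox9 peaks. The 169 Sox6 peaks of the desert were equalled or exceeded in 3.54% of those windows, and its 54 Sox9 peaks in 4.17%. The desert was therefore among the fuller windows for both factors, without being the fullest, since single windows reached 233 Sox6 and 86 Sox9 peaks.

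**Figure D1:**
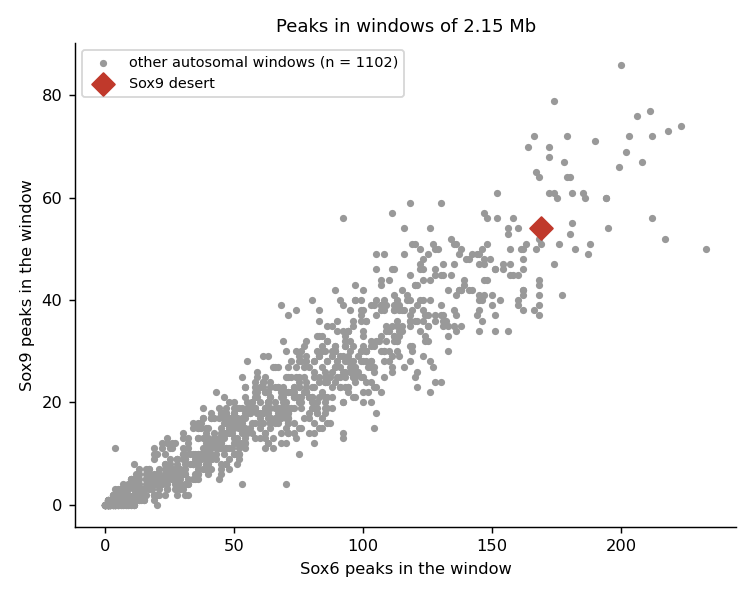
Number of Sox9 peaks (vertical axis) against number of Sox6 peaks (horizontal axis) in windows of 2.15 Mb, where each grey point is 1 of 1102 autosomal windows. The red diamond is the Sox9 desert, with 169 Sox6 and 54 Sox9 peaks, toward the upper right of the cloud and along its main direction.

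The proportion of shared sites in the desert was near that of the whole lists. Of the 54 Sox9 peaks, 44 met a Sox6 peak with 1 bp or more in common, which is 81.5% (95% exact binomial interval 68.6 to 90.7), against a background of 76.7% over the whole Sox9 list. Conversely, 44 of the 169 Sox6 peaks met a Sox9 peak, or 26.0% (19.6 to 33.3), against 23.1% of the whole Sox6 list. Both intervals include the share of the whole list. There were 3.13 Sox6 peaks per Sox9 peak, and the median over the 522 windows with at least 20 Sox9 peaks was 3.17. The desert thus carried more peaks of both kinds than most windows, in about the usual ratio and with about the usual sharing.

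**Figure D2:**
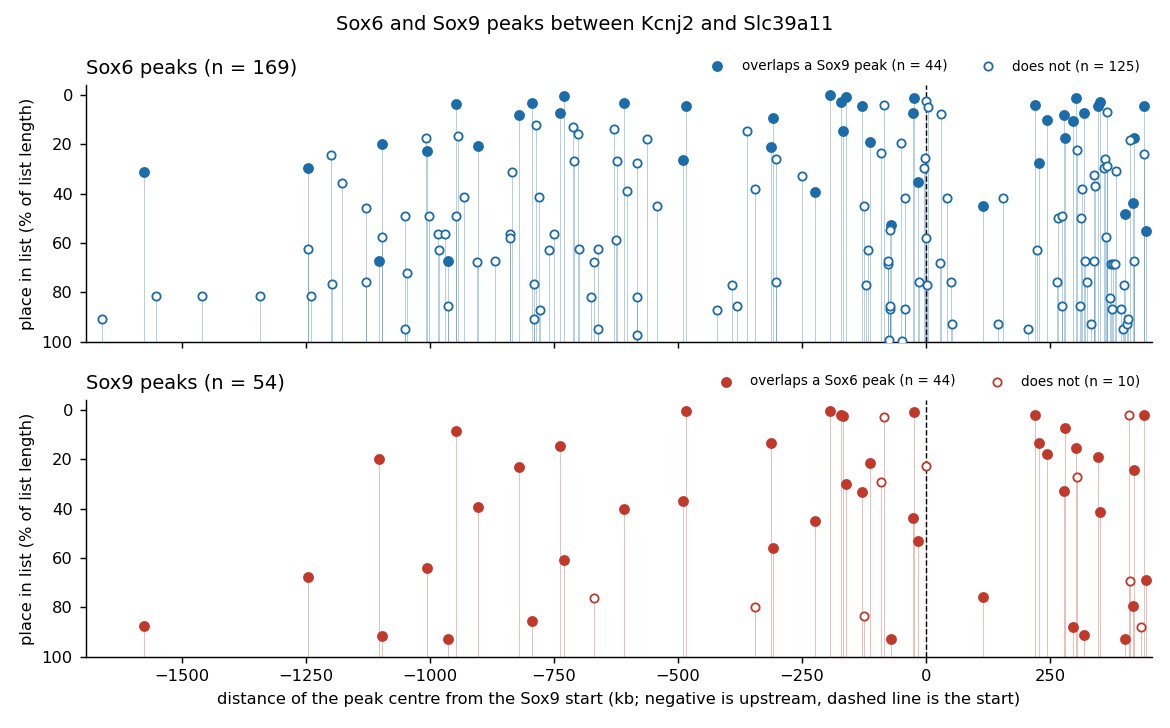
Every Sox6 peak (upper panel, n = 169) and Sox9 peak (lower panel, n = 54) of the desert by distance from the Sox9 start in kb, with its place in the deposited list on the vertical axis (0% is the head of the list). Filled circles overlap a peak of the other list, and the dashed line is the Sox9 start. Filled Sox6 circles lie mostly in the upper part of their panel, and Sox9 peaks are sparse at the left of the map.

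At the gene itself each factor had peaks, but not at the same positions. A Sox9 peak from 112643436 to 112643620 covered the assumed Sox9 start, with its centre 27.5 bp downstream of it, at place 5393 of the Sox9 list. No Sox6 peak overlapped it. The nearest Sox6 peak, from 112642834 to 112642948, was centred 609.5 bp upstream of the start and 637 bp from the Sox9 centre, and stood at place 1912, in the first 2.42% of the Sox6 list. Further Sox6 peaks lay 2.2 and 3.5 kb upstream, at 25.4% and 29.5% of the list. Inside the gene, whose length is about 5.6 kb, Sox6 peaks were centred 1.1, 1.5 and 4.9 kb from the start, at places 45760, 61040 and 3785. These 6 Sox6 peaks formed a run of 8.5 kb over the gene in which none overlapped a Sox9 peak. Of the whole Sox6 list only 23.1% met a Sox9 peak, so 6 unshared peaks do not set the gene apart. With edges allowed up to 1000 bp apart, the Sox9 peak on the start counted as shared. Exons and introns could not be assigned, because no mm9 annotation was used. On the downstream side of the start, the nearest Sox6 peak is the one from 112644577 to 112644710 and the nearest Sox9 peak, apart from the one on the start, lay 115.6 kb away.

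Sites shared by the factors began 15.1 kb upstream. Within 50 kb of the start there were 17 Sox6 and 4 Sox9 peaks, and 3 pairs overlapped, all upstream. The pair 15.1 kb upstream had its Sox9 peak from 112628344 to 112628426 inside a Sox6 peak from 112628265 to 112628463, at 53.2% and 35.3% of the lists. The pair 23.9 kb upstream stood near the head of both lists, at place 166 for Sox9 (112619535 to 112619688) and 959 for Sox6 (112619466 to 112619678), with 144 bp in common. The pair 26.8 kb upstream had a Sox9 peak from 112616581 to 112616868 around a Sox6 peak from 112616654 to 112616743, at 43.6% and 7.40% of the lists. These 3 pairs made up a run of 12.4 kb with 4 Sox6 and 3 Sox9 peaks, in which a single Sox6 peak, 14.6 kb upstream, was unshared. On requiring 50% of both peaks to overlap, only the pair at 23.9 kb counted as shared.

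**Figure D3:**
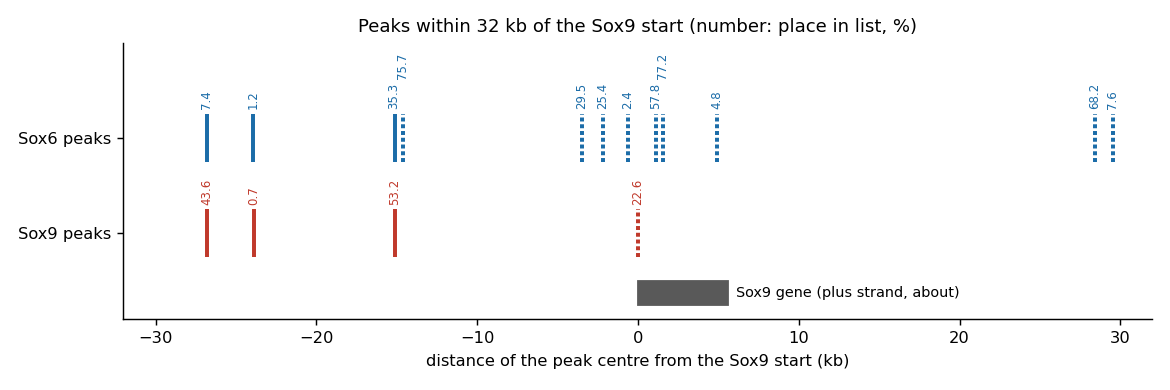
Peak centres within 32 kb of the Sox9 start (horizontal axis in kb, grey box the approximate extent of the gene), with Sox6 peaks in the upper row and Sox9 peaks in the lower row. Solid ticks overlap a peak of the other list, dotted ticks do not, and the number above each tick is its place as a percentage of list length. The 3 solid ticks of each row line up between 26.8 and 15.1 kb upstream, whereas the ticks at the gene are all dotted.

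The stretch from 50 to 250 kb upstream held the site that came earliest in both lists. It lay 193.7 kb upstream, with a Sox6 peak from 112449683 to 112449952 at place 89 and a Sox9 peak from 112449690 to 112449919 at place 78. The Sox9 peak lay wholly within the Sox6 peak, and the centres were 13 bp apart. Over this stretch there were 20 Sox6 peaks and 11 Sox9 peaks, or 1.82 Sox6 peaks per Sox9 peak, compared with 3.13 over the desert. Among them 8 Sox9 peaks were shared, and 8 Sox6 peaks, which is 40.0% of the latter (19.1 to 63.9). The 26.0% of the whole desert and the 23.1% of the whole Sox6 list lie inside that interval. For Sox9 the share was 72.7% (39 to 94), against 76.7% of the whole list.

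Close to the site at 193.7 kb, a run of 10.7 kb from 171.0 to 160.5 kb upstream held 3 Sox6 and 3 Sox9 peaks, and every one of them overlapped a peak of the other list. Its Sox9 peaks stood at places 503, 602 and 7192, and its Sox6 peaks at places 2353, 11378 and 524. Hence each of its sites was in the first 3% of at least 1 list. The amount of overlap differed between them. At 170.9 kb upstream the peaks met by 1 bp, at 166.4 kb they shared 143 bp, and at 160.6 kb a Sox9 peak of 57 bp shared 44 bp with a Sox6 peak of 193 bp. Nearer the gene, pairs followed 128.4 and 112.1 kb upstream, with 123 and 93 bp in common.

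From 90.3 to 70.7 kb upstream lay a run made up mostly of Sox6 peaks. This run held 9 Sox6 and 3 Sox9 peaks, and a single pair overlapped, 70.7 kb upstream, at 52.8% of the Sox6 list and 92.8% of the Sox9 list. In the last 50% of the list, where 8.02% of all Sox6 peaks were shared (23.1% of the whole list), lay 7 of its Sox6 peaks. The 2 others were beside a Sox9 peak without touching it. At 84.2 kb upstream a Sox9 peak from 112559301 to 112559378 at place 696 was separated by 61 bp from a Sox6 peak at place 3299, and at 90.3 kb the gap between the peaks was 2 bp.

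Between 250 and 500 kb upstream peaks were fewer, with 11 for Sox6 and 5 for Sox9. Of the Sox9 peaks 4 were shared (80%, whole list 76.7%), as neighbouring pairs at 308.7 and 311.6 kb and at 483.0 and 488.5 kb. The Sox9 peak at 483.0 kb, from 112160397 to 112160593, was second of the desert in its list at place 131, yet it met its Sox6 neighbour (place 3612) by 1 bp only. Between 482.9 and 343.8 kb upstream a stretch of 139.1 kb had no Sox9 peak and 4 Sox6 peaks, which are unshared by definition.

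Beyond 500 kb upstream, over 1193.5 kb, peaks thinned out toward Kcnj2. This part took up 55.5% of the window and held 66 Sox6 peaks, or 39.1% of those of the desert (31.7 to 46.8), and 14 Sox9 peaks, or 25.9% (15.0 to 39.7). Its densities of 55.3 Sox6 and 11.7 Sox9 peaks per Mb were below those of the desert. The rest of the autosomes had 32.3 and 9.85 per Mb, and the rest of chromosome 11 had 44.3 and 14. The Sox9 density was thus below that of its own chromosome, and it rests on 14 peaks. Of the 14 Sox9 peaks 13 overlapped a Sox6 peak (92.9%, 66.1 to 99.8). Of the 66 Sox6 peaks 13 did the reverse (19.7%, 10.9 to 31.3). Over the whole lists the shares were 76.7% for Sox9 and 23.1% for Sox6, each inside its interval here.

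Within that far part, the Sox6 peaks gathered between 600 and 1100 kb upstream, with 5 to 13 in each 100 kb and 1 to 3 Sox9 peaks beside them. The second earliest Sox6 peak of the desert lay here, 729.7 kb upstream from 111913677 to 111913851, at place 244. It was wholly covered by a Sox9 peak, which stood much later, at 60.9% of its own list. A pair 946.0 kb upstream was early in both lists, at 3.53% for Sox6 and 8.43% for Sox9, with centres 3 bp apart. Other shared sites with Sox6 in the first 10% were at 608.4, 737.6, 794.4 and 820.6 kb upstream. The outermost peak of the desert, an unshared Sox6 peak, lay 1660.8 kb upstream. The outermost shared site lay 1574.7 kb upstream, followed toward Sox9 by 328.6 kb without a Sox9 peak, the longest such stretch of the desert. That stretch held 3 Sox6 peaks, which are unshared by definition. The longest interval free of both factors, 116.8 kb, lay inside it, from 1458.7 to 1341.9 kb upstream.

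**Figure D4:**
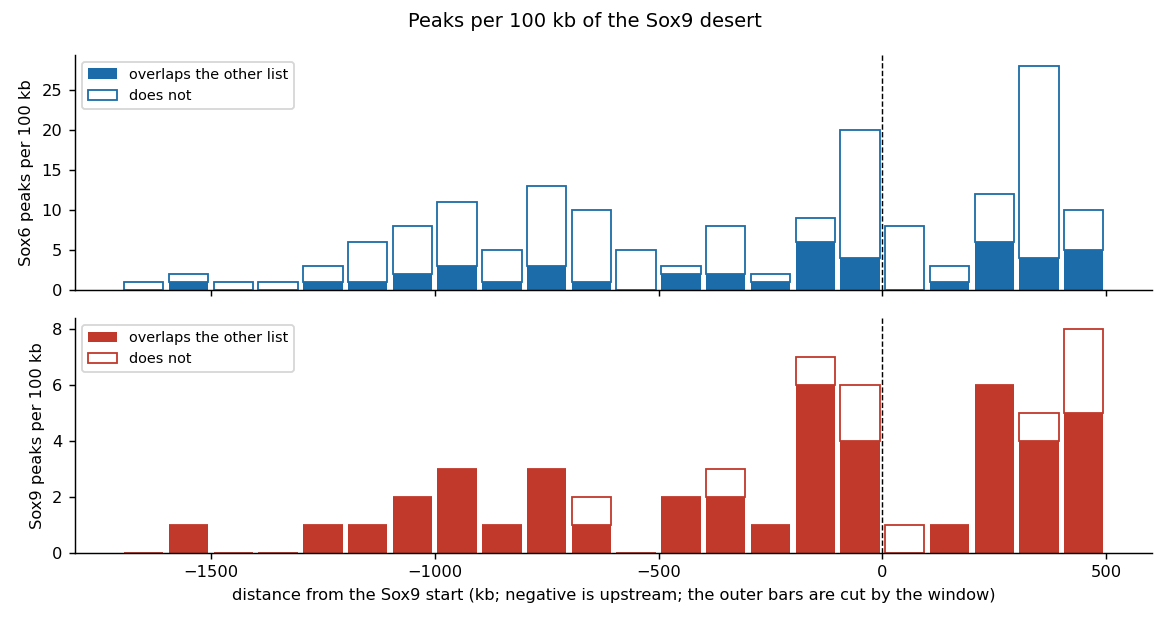
Sox6 peaks (upper panel) and Sox9 peaks (lower panel) in each 100 kb of distance from the Sox9 start, with the filled part of a bar counting peaks that overlap the other list. The highest Sox6 bar, 28 peaks, lies 300 to 400 kb downstream, and the highest Sox9 bars lie 100 to 200 kb upstream (7 peaks) and 400 to 500 kb downstream (8 peaks, in a bin that the window cuts short).

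Downstream of the start Sox9 peaks were few up to 200 kb and then dense, and Sox6 peaks were few between 100 and 200 kb, with 3, after 8 in the first 100 kb. In the first 200 kb there were 11 Sox6 and 2 Sox9 peaks, of which 1 pair was shared, 115.6 kb downstream. Between the Sox9 peak on the start and that pair, no Sox9 peak was listed, although 2 Sox6 peaks stood in the first 10% of their list, at 4.9 and 29.5 kb. From 200 kb to the end of the window, 256.5 kb, there were 50 Sox6 and 19 Sox9 peaks. These are 195 and 74.1 peaks per Mb, compared with 78.6 and 25.1 over the desert and 32.3 and 9.85 over the autosomes. Of the Sox9 peaks 15 were shared, 78.9% (54.4 to 93.9), and of the Sox6 peaks 15, or 30.0% (17.9 to 44.6). These intervals include the whole-list shares of 76.7% for Sox9 and 23.1% for Sox6, so unusual sharing is not shown. As a whole the downstream side made up 21.2% of the window and held 36.1% of its Sox6 peaks (28.9 to 43.8) and 38.9% of its Sox9 peaks (25.9 to 53.1).

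Of these, 36 Sox6 and 11 Sox9 peaks lay in 1 long run, 296.9 to 419.7 kb downstream, from 112940255 to 113063210. Neighbouring Sox6 centres in it were no more than 10 kb apart. With the same rule the whole Sox6 list formed 8826 runs of 3 or more peaks with a median size of 4, and 22 of them (0.249%) were as large or larger. The run was picked as the largest of the 24 Sox6 runs of the desert, so that share does not measure its rarity. Its extent also depends on the 10 kb rule, since its neighbouring centres at 383.1 and 392.2 kb are more than 5 kb apart. Of the Sox6 peaks in the run 8 were shared, and 17 stood in the last 50% of the list. The earliest was a peak 302.9 kb downstream, from 112946340 to 112946549, at place 819, the fourth of the desert. It met a wide Sox9 peak of 412 bp by 58 bp, with centres 253 bp apart. The other pairs within the run whose Sox6 peak was in the first 10% lay 319.4, 347.2 and 350.2 kb downstream.

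On the near side of the long run, pairs lay 219.0, 228.9, 245.0, 279.0 and 281.1 kb downstream. The first of these, a Sox9 peak from 112862456 to 112862567 at place 476 on a Sox6 peak at place 3341, was early in both lists, and the last had its Sox9 peak at place 1731 (7.25%). On the far side, the pair 439.3 kb downstream stood at places 516 and 3662, and the pair 443.7 kb downstream was the last before Slc39a11. Inside the long run, 409.6 kb downstream, a Sox9 peak from 113052963 to 113053144 was early too, at place 486. The nearest Sox6 peak was 2446 bp from its edge, and the nearest Sox6 centre 2.6 kb from its own. It belonged to the largest Sox9 run of the desert, 5 peaks from 402.2 to 419.6 kb downstream, of which 3 were shared. A run of this size was common, since 331 of the 1597 runs of the whole Sox9 list (20.7%) were as large or larger.

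The order of the lists is undocumented, so places in them are given as a description only. Sox9 peaks of the desert had a median place at 35.0% of the list, with 11 of 54 in its first 10% (20.4%, 10.6 to 33.5). Sox6 peaks had a median place at 48.2%, with 26 of 169 in the first 10% (15.4%, 10.3 to 21.7). Sharing fell along the Sox6 list within the desert much as it did elsewhere. In the first 10% of the list 21 of 26 desert peaks were shared (80.8%, 60.6 to 93.4), and the whole list had 70.8% there. From 10 to 25% of the list it was 41.7% against 42.8%, from 25 to 50% it was 22.0% against 22.2%, and from 50 to 75% it was 11.8% against 10.2%. In the last 25% none of 44 desert peaks was shared. A count of 0 in 44 allows up to 8.04% (exact binomial), and the whole list had 5.87%. Along the Sox9 list the desert showed no steady fall, but its tiers held only 7 to 14 peaks each. In the first 10% of the list 9 of 11 desert peaks were shared (81.8%, whole list 89.6%). From 10 to 25% it was 90.9% against 86.5%, and from 25 to 50% it was 81.8% against 80%. From 50 to 75% it was 85.7% against 72.6%, and in the last 25% 10 of 14 were shared (71.4%, whole list 66.5%). The intervals of the desert tiers overlap, and each includes the share of the whole list in that tier. A course along the Sox9 list that differs from the whole list is therefore not shown.

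The 5 Sox6 peaks in the first 10% of the list that met no Sox9 peak were singled out after their values were seen. They lay 84.0 kb and 0.6 kb upstream, and 4.9, 29.5 and 365.9 kb downstream. Hence 2 of them were at the gene itself, within 5 kb of its start. Nearest Sox9 centres were 169.5 and 637 bp away for the upstream ones, and 4.9, 29.5 and 15.7 kb away for the downstream ones.

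In the 44 overlapping pairs the places of the 2 peaks were only loosely related (Spearman rho 0.505, Pearson r 0.494, across sites that share the same libraries, as a description). For 7 pairs both peaks were in the first 10% of their lists: those at 946.0, 483.0, 193.7, 170.9 and 23.9 kb upstream and at 219.0 and 439.3 kb downstream. In another 7 pairs the Sox6 peak was in the first 25% and the Sox9 peak in the last 50%, as at 729.8 kb upstream. The reverse held for 1 pair, 1101.3 kb upstream. Over all 44 pairs, 31 Sox6 peaks but 19 Sox9 peaks were in the first 25% of their lists, and such margins favour the first of these arrangements. The distance between the centres of a pair had a median of 34.5 bp (quartiles 16.6 and 62.1, range 2.5 to 272.5), and 29 of 44 were within 50 bp. The overlap ranged from 1 to 230 bp with a median of 112 bp.

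**Figure D5:**
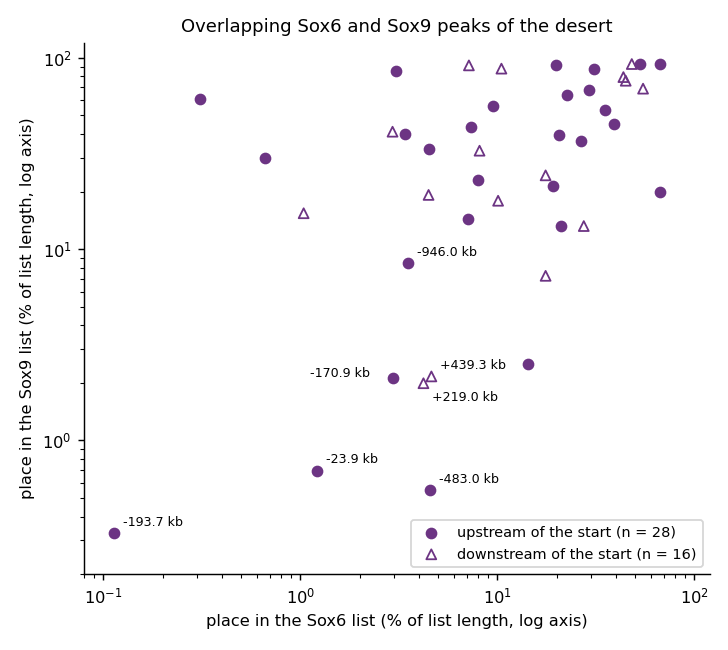
Place of the Sox9 peak against place of the Sox6 peak, both as a percentage of list length on log axes, for the 44 overlapping pairs of the desert (circles upstream, n = 28, triangles downstream, n = 16). The 7 labelled pairs, given by distance from the Sox9 start, are in the first 10% of both lists, and the pair 193.7 kb upstream is nearest the head of both.

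Sox9 peaks without a Sox6 overlap were seldom far from Sox6. Of these 10 peaks, 7 had a Sox6 centre within 1000 bp (70.0%, 34.8 to 93.3), compared with 58.8% of all unshared Sox9 peaks, and the farthest was 6.2 kb away. In 5 of them, all upstream, the nearest Sox6 centre was within 300 bp and the facing edges were 2 to 100 bp apart. They were centred 668.9, 343.8, 124.6, 90.3 and 84.2 kb from the start. Together with the pairs that met by 1 bp at 483.0 and 170.9 kb, these are 7 of 54 Sox9 peaks (13.0%, 5.37 to 24.9) that stood beside a Sox6 peak with at most 1 bp in common, a grouping made after the values were seen. By the same measure the share of the whole Sox9 list was 5.49%, inside that interval. All 7 were upstream, where they made up 21.2% of 33 Sox9 peaks (8.98 to 38.9). The 5.49% of the whole list lies below that interval, but the grouping followed the values and no test was made. By distance between centres, offset pairs occurred downstream too. The pairs 302.7 and 350.2 kb downstream had centres 253 and 272.5 bp apart, with 58 and 72 bp in common. Downstream, the 5 unshared peaks included the one on the Sox9 start, and their nearest Sox6 centres were 637 bp to 6.2 kb away. Unshared Sox6 peaks were farther from Sox9, at a median of 12.8 kb, and 65 of these 125 were more than 10 kb from any Sox9 centre. The Sox9 list is 3.31 times shorter, and how far list length enters into this difference in distance was not tested. Within 1000 bp of a Sox9 centre were 9.60% of the unshared Sox6 peaks of the desert and 10.3% of those of the whole list.

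Most Sox6 peaks of the desert stood in runs of 3 or more, as they did in the whole list. The desert held 24 Sox6 runs with 127 peaks, which is 75.1% of its Sox6 peaks compared with 57.0% of the whole list. For Sox9 there were 5 runs with 17 peaks, 31.5% compared with 26.1%. A longer list gives more runs at a fixed gap, and with the Sox6 list shortened to the length of the Sox9 list, 35.5% of its desert peaks were in runs, compared with 20.1% of the shortened list. Besides those already described, Sox6 runs of 6 peaks lay 794.3 to 778.6 kb upstream, with 1 peak shared, and 264.2 to 281.2 kb downstream, with 2 shared. In runs 25.2% of Sox6 peaks were shared (17.9 to 33.7), and outside them 28.6% (15.7 to 44.6), with intervals that overlap. The other Sox9 runs, of 3 peaks each, lay 170.9 to 160.6 and 26.8 to 15.1 kb upstream and 296.9 to 303.7 and 432.8 to 443.7 kb downstream.

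Peak widths in the desert were like those of the lists, with medians of 150 bp for Sox6 (whole list 151) and 185 bp for Sox9 (whole list 183). The 3 widest Sox6 peaks, of 476, 446 and 433 bp, lay 660.8, 1244.6 and 76.0 kb upstream, and none of them was shared. The 3 widest Sox9 peaks, of 476, 458 and 412 bp, lay 820.6 kb upstream and 350.2 and 302.7 kb downstream, and all were shared. In each of these the Sox6 partner was narrower, at 89, 231 and 210 bp. Over the whole lists 23.1% of Sox6 and 76.7% of Sox9 peaks were shared. With 3 peaks of each list, a link between width and sharing is therefore not shown.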

How the data were processed

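Both peak lists were used as deposited by the authors, each with chromosome, start and end of every peak and no header. The build mm9 and the aligner Bowtie are listed, with no version, per the submitters' processing notes on the Sox6 and input samples. The sources used here do not name the peak caller. Both file names bear an FDR tag that nothing explains. The Sox9 list carries no build of its own and was read as mm9. Starts were counted from 0 in the files and are printed counted from 1.

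Peaks with centres inside the window were kept as called. Overlap of at least 1 bp counted as shared, runs were 3 or more peaks with neighbouring centres within 10 kb, and intervals are 95% exact binomial (Clopper-Pearson) or exact Poisson. Tiled windows began at the first position on each autosome covered by both lists and left out those touching the desert. Densities used the distance from the first peak centre of a chromosome to the last. Named sites are the shared ones within 50 kb of the start, the nearest on each side, the 5 earliest of each list, the largest runs, the 3 widest, the outermost and the longest gaps, with others named after their values were seen. The region and these rules were chosen with earlier results of these data known. Overlap, merging and runs were tested on simulated intervals. Alternatives changed the overlap rule, list length, window, reference, gap and start. Python 3.11.15, numpy 2.4.6, pandas 2.3.3, scipy 1.17.1 and matplotlib 3.10.9 were used.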

Additional observations from a re-analysis of the deposited data

How the results depend on the processing

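Of 47 alternative values, 27 stayed within the interval of the reported value, or within 1.5 times a reported count, and 20 did not. When an overlap had to cover 50% of each peak, 50.0% of Sox9 and 16.0% of Sox6 peaks of the desert were shared, and when edges could be up to 1000 bp apart, 94.4% and 33.7%. With as many Sox6 peaks as the Sox9 list has, taken from the head of the list, the shares were 63.0% and 54.8% and the Sox6 density ratio to autosomes was 2.94, where fewer peaks enter by construction. Shares of the whole lists under these rules are not given here. Whether sharing in the desert stays near that of the whole lists under each rule was therefore not tested. Against chromosome 11 the density ratios were 1.77 for Sox6 and 1.80 for Sox9, and within 500 kb of the start, against autosomes, 3.33 and 4.25. Within 500 kb the upstream share of Sox6 peaks was 40.8%, where the window itself is nearly even. A run gap of 25 kb merged Sox6 runs to 13, and the shortened Sox6 list, added after seeing the data, formed 6. For Sox9 a gap of 5 kb left 0 runs, and runs of 2 or more numbered 14. Within 25 kb of the start there were 9 Sox6 peaks and within 100 kb 28, with 7 for Sox9. Of the 3 pairs within 50 kb, 1 remained with 50% of both peaks required, an alternative added after seeing the data. Beyond these constructions the cause was not tested. Depth is unknown and there is 1 list per factor, so an unlisted peak is not shown to be an absent site.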

Other observations

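Some desert peaks late in the lists stood near other desert peaks in list order, and a few of these runs followed the genome. Of the 78 desert Sox6 peaks in the last 50% of the list, 28 had another desert peak within 10 places, and of the 91 in the first 50%, 8 had. For Sox9 these were 7 of 21 and 4 of 33. In the Sox6 list, places 73507 to 73512 held 4 unshared desert peaks in genome order, from 52.2 to 405.8 kb downstream, and places 64511 to 64516 held 3, from 1458.8 to 1239.1 kb upstream. No such counts were made for other windows, so a trait particular to the desert is not shown. How far a late place in either list stands for a ranking was not tested.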
